A study of Mus musculus with 12 samples.

Results

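The comparison set the closed side of the main olfactory epithelium (MOE) of mice without the histone variant gene H2be (H2be-KO) against the closed side of wild-type (WT) mice, after a nostril had been shut by unilateral naris occlusion (UNO). It rests on the 3 samples labelled MOE H2be-KO UNO-closed 5wk and the 3 labelled MOE WT UNO-closed 5wk, 6 of the 12 samples of the study; the other 6 are the open sides of both genotypes. Every mouse, of both genotypes, had its right nostril cauterised at 14 days of age, a scar closed it over the following days, and RNA was taken 3 weeks after the procedure, at 5 weeks of age, although the samples also carry an age tag of 6 months. In the H2be-KO line the coding sequence of H2be is replaced by a membrane-bound red fluorescent reporter, GAP43-mCherry, and the H2be promoter drives that reporter instead. A sample pooled the MOE side of 2 mice, 1 female and 1 male, by the text of the design, whereas the legends of the study give another number of animals per sample. Nothing in the labels says whether open and closed samples of 1 number came from the same mice, and p-values measure the spread between these pooled samples. RNA was hybridised to Affymetrix Mouse Gene ST arrays, on which a probe set is a group of short probes read together as 1 gene, and each level below is on the log2 scale, so that a difference of 1 is a doubling.

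Olfactory sensory neurons (OSNs) of the MOE each express 1 odorant receptor (OR) gene out of a large family, send their axons to the olfactory bulb, and are replaced from basal stem cells throughout life. H2be encodes a form of histone H2B, 1 of the proteins around which DNA is wound, and is transcribed in OSNs; the other H2B genes are near copies of one another, most of them lying in histone clusters and read during cell division. A closed nostril keeps odors from the OSNs of that side, which may still have activity that no odor evokes, and so the comparison asks what the loss of H2be does to the MOE under odor deprivation.

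H2be, whose present gene symbol is H2bc21, was lower on the closed side of the KO without passing the test over all probe sets. Its log2 level was 11.46, 11.41 and 11.44 in the 3 KO samples and 11.68, 11.71 and 11.75 in the 3 WT samples. The groups did not overlap, and the difference of -0.27 (95% interval -0.43 to -0.12) had an adjusted p of 0.999 and an unadjusted p of 0.0026 in limma. Where the probes of this probe set lie, in the coding sequence that the allele lacks or outside it, is not given in the sources used here, so it checks the labels only if its probes lie in the deleted part.

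The probe sets that did pass were all probe sets of H2B genes. Of 32615 probe sets tested, 8 (0.0245%) were called at an adjusted p under 0.05, each of them lower in the KO, and these 8 belong to the 21 H2B probe sets of the array. Of the 8, 3 hold identical values on every array, and so the calls amount to 6 different measurements. Fitted on the 6 closed-side arrays alone, only the 3 with identical values passed, and with same-numbered KO and WT samples as a replicate block in those arrays 0 did in limma (747 higher and 885 lower at an unadjusted p under 0.05). The test took all 12 arrays into 1 linear model with a mean for each genotype and side, and adjusted p-values by Benjamini-Hochberg over all probe sets whose mean log2 level was above 5.

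The largest of these differences was that of the 3 probe sets with the same values, which list 14 H2B genes at once, the probes being common to them. Their log2 level was 10.32, 10.32 and 10.25 in the KO and 11.39, 11.43 and 11.52 in the WT. The difference between KO and WT was -1.15 (standard error 0.08, adjusted p = 8.43e-05, limma), which is 2.22-fold. Each KO sample was below each WT sample by far more than samples of a group differed among themselves, and none of the called probe sets of several genes lists H2be among its genes. H2bu1-ps, an H2B pseudogene with a probe set of its own, stood at 7.68, 7.82 and 7.79 in the KO and at 8.81, 8.76 and 8.91 in the WT. Its difference was -1.07 (standard error 0.09, adjusted p = 0.000793, limma). The other 4 called probe sets, of 14 or 15 listed genes each, had differences from -0.98 to -0.87. H2B genes share most of their coding sequence, and which transcripts a probe set of this family reads, H2be itself among them, was not tested.

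The remaining H2B probe sets differed in both directions. H2bc3, H2bc22 and H2bu2, each with a probe set of its own, had differences of -0.84, -0.86 and -0.78 without passing (adjusted p = 0.0902, 0.356 and 0.410, limma), although the KO and WT samples did not overlap for any of them. H2bc3 read 7.74, 7.88 and 7.61 in the KO and 8.42, 8.74 and 8.58 in the WT. On the other side of 0 stood H2bc8 with 8.28, 8.17 and 8.27 in the KO and 7.82, 7.73 and 7.91 in the WT, a difference of 0.42 with an unadjusted p of 0.0028. H2bc4 was likewise higher in each KO sample than in each WT sample, with a difference of 0.28 and an unadjusted p of 0.0039. The 21 H2B probe sets hold 19 different measurements, since 3 of them share their values. Over the 21, with each of those 3 counted, 14 were lower and 3 higher in the KO with no overlap between the genotypes. Of all probe sets, 4.59% and 4.23% were so. At an unadjusted p under 0.05 in limma, 14 were lower and 2 higher, against 2.24% and 2.02% of all probe sets.

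**Figure D1:**
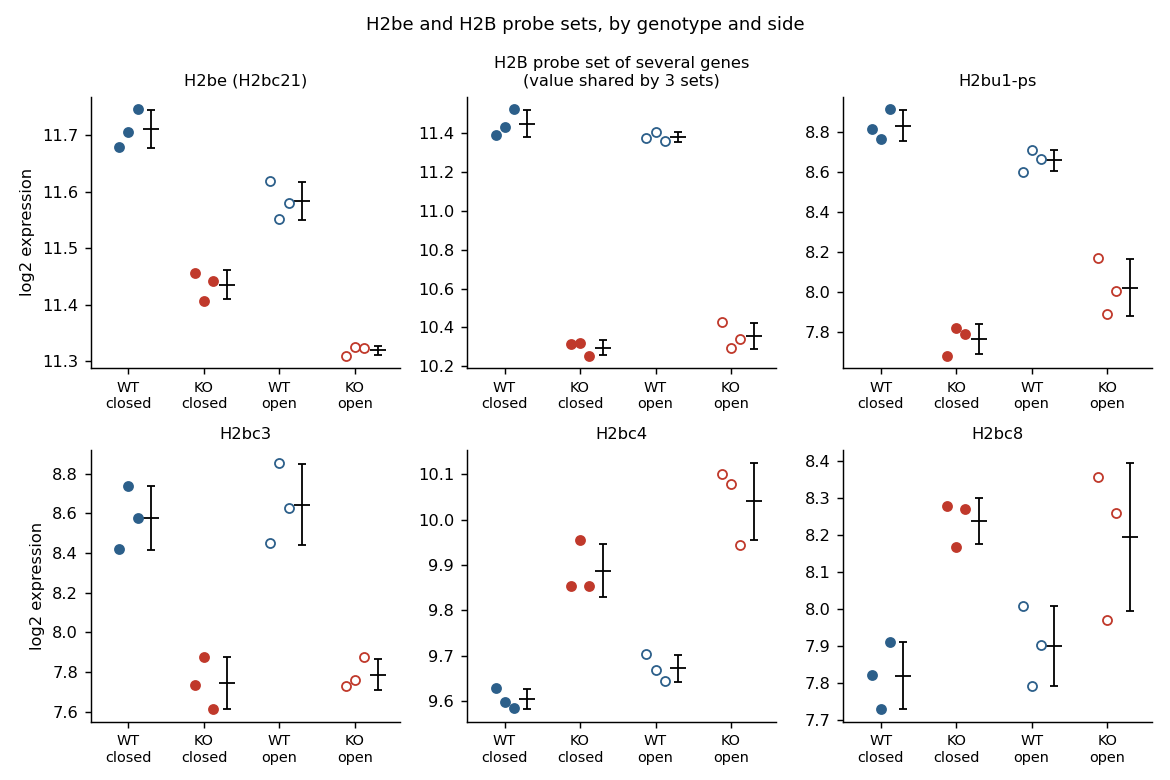
Log2 expression (vertical axes, each with its own range) of H2be and of 5 H2B probe sets in each of the 12 arrays, by genotype and side (horizontal axis); points are arrays, filled for the closed side, and bars are the mean and SD (n = 3). The KO points of the probe set of several genes lie about 1 log2 unit under the WT points on either side, those of H2be by -0.27 on the closed side, and on the closed side those of H2bc4 and H2bc8 lie above.

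On the open side of the same tissue the KO differences of these probe sets were -1.03 for the 3 with equal values (adjusted p = 0.000302, limma) and -0.64 for H2bu1-ps (adjusted p = 0.0842, limma). The difference of H2be there was -0.26, and 7 probe sets (0.0215%) were called on that side. Tested directly, the KO effect differed between the sides for 0 of 32615 probe sets in limma (1309, or 4.01%, at an unadjusted p under 0.05), and for H2bu1-ps the side difference was -0.43 with an unadjusted p of 0.0074. Averaged over both sides, 9 probe sets (0.0276%) passed, the 8 above and that of H2bc3 (adjusted p = 0.00256, limma). That average takes open and closed samples as independent, so its p-values may be too small if both sides came from the same mice. The p-values of the side difference may in that case be too large. Between the closed and open side of the WT, the 8 called probe sets differed by at most 0.17, and none of them passed, where 0.855% of all probe sets did.

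No gene outside the H2B family passed the test on the closed side. At an unadjusted p under 0.05 limma gave 660 probe sets higher in the KO (2.02%) and 731 lower (2.24%), together 4.26%. The median difference was -0.00164, and 95% of probe sets differed by less than 0.347 in either direction. The median 95% half-width of a difference, not adjusted for the number of probe sets, was 0.293. KO effects larger than this could also go uncalled, as did the difference of -0.84 of H2bc3. Among dim probe sets, with a mean log2 level between 5 and 7, 2.92% were higher and 3.2% lower at that threshold, and above 11 only 0.106% and 0.318%. The 6 closed-side arrays correlated with r from 0.972 to 0.985 within a genotype (6 pairs) and from 0.974 to 0.984 between genotypes (9 pairs). WT closed 3 weighed on the counts, for without it 1115 probe sets were higher and 1133 lower at an unadjusted p under 0.05 while the calls stayed at 8.

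**Figure D2:**
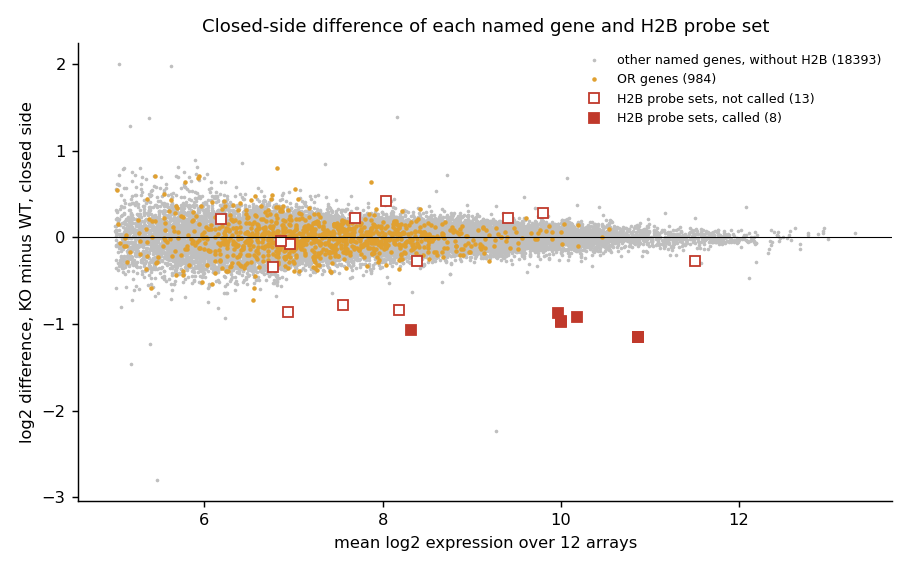
Log2 difference between KO and WT on the closed side (vertical axis) against the mean log2 level over the 12 arrays (horizontal axis), for each named gene (grey), each OR gene (orange) and each H2B probe set (red squares, filled where called). The called H2B probe sets lie near -1 at levels where nearly all other genes form a narrow band around 0, with 5430401F13Rik at -2.24 as an exception.

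The genes other than ORs with the largest differences between groups that did not overlap were dim, and apart from H2B genes none passed. Of the 10 largest in the upward direction, 9 had a mean level under 7. Ptchd3, a gene of the patched-domain family, read 5.72, 5.81 and 6.16 in the KO and 3.91, 5.38 and 4.26 in the WT. Its difference of 1.38 (standard error 0.32) had an adjusted p of 0.999 in limma, and 0.0206 without WT closed 2, the WT sample nearest to the KO. Rag1, which encodes a recombinase of lymphocytes, read 6.34, 6.51 and 6.25 in the KO against 5.46, 5.48 and 5.98 in the WT, a difference of 0.73 (adjusted p = 0.970, limma). Dll3, a Notch ligand of neuronal progenitors, read 5.57, 5.60 and 5.15 against 4.85, 4.90 and 4.54, a difference of 0.68. For both, each KO sample lay above each WT sample on the closed side, which was a condition for naming them. The open-side differences, on which no choice was made, were -0.15 and -0.09. The difference between the sides did not pass for either, nor for any other gene. The others were Slc10a2, the ileal bile acid transporter, with 1.29 (0.45 without WT closed 1), the zinc finger gene Zfp874a with 0.85 (0.55 without WT closed 2), Ubqln5 with 0.78, the scaffold protein gene Pdzk1 with 0.75, Sohlh2, a transcription factor of germ cells, with 0.70, Prss52 with 0.62 (0.41 without WT closed 1) and Upk3bl with 0.58. On the open side Zfp874a had a difference of 0.88 (unadjusted p = 0.0079), and Sohlh2 one in the opposite direction, of -0.53 (unadjusted p = 0.021).

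In the downward direction the H2B genes H2bu1-ps, H2bc22, H2bc3 and H2bu2 were 4 of the 10 largest. S100a14, a calcium-binding protein gene of epithelia, read 6.19, 6.07 and 4.83 in the KO and 6.87, 6.50 and 6.49 in the WT, a difference of -0.93 (-0.49 without KO closed 3). Acte1 followed with -0.72, Nobox, a homeobox gene of oocytes, with -0.69, Zfp811 with -0.64 (-0.32 without KO closed 2), Tinag with -0.64 and Pcsk1, a convertase of prohormones, with -0.64. Allc, an enzyme gene of purine breakdown, had the smallest p of the lower genes outside H2B, with 6.11, 6.01 and 5.99 in the KO and 6.55, 6.41 and 6.48 in the WT. The groups were narrow and apart, but its difference of -0.44 did not pass (adjusted p = 0.882, limma). Ankrd29, 1 of the 5 with the smallest p upward, differed by 0.56 with an adjusted p of 0.970.

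Odorant receptor genes, the family that the study follows under deprivation, showed no called difference between KO and WT on the closed side. Of 1015 OR genes with a probe set of 1 symbol, 984 were tested, and 0 passed in limma. At an unadjusted p under 0.05, 27 were higher in the KO (2.74%) and 39 lower (3.96%), against 2.02% and 2.24% of all probe sets. Without WT closed 3 these became 49 and 25, so that the balance between the directions turned with 1 sample. It also turned without KO closed 1 (30 higher and 23 lower) and with arrays weighted by their quality (35 and 31). The count of higher ORs was 12 when KO closed 2 was left out, 15 when WT closed 2 was and 18 when WT closed 1 was. The median difference was -0.01, against -0.00164 over all probe sets, and the 5th and 95th percentiles of the ORs were -0.284 and 0.266. The mean level over the 984 ORs was 7.27, 7.31 and 7.33 in the KO samples and 7.24, 7.28 and 7.40 in the WT samples, which overlap.

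The 95% interval of the difference lay within 1 log2 unit of 0 on both sides for 969 of 984 ORs (98.5%) and within 0.5 for 707 (71.8%). The median size of the KO difference was 0.1 over the ORs and 0.0914 over all probe sets. For the difference between the closed and open side in the WT it was 0.179 and 0.106. Both comparisons use the WT closed samples. In all, 8 ORs differed by more than 0.5 upward and 5 downward, and none by more than 1.

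The ORs with the largest differences whose samples did not overlap were Olfr197 (0.80), Olfr913 (0.68), Olfr250 (0.64), Olfr522 (0.56), Olfr898 (0.49) and Olfr322 (0.48) upward. Olfr522 had the smallest p among them. Its level was 7.04, 7.12 and 7.20 in the KO and 6.33, 6.83 and 6.52 in the WT, and the KO samples lay near the open-side samples of both genotypes, from 7.07 to 7.45. The difference had a standard error of 0.13 and an adjusted p of 0.999, as for every OR named here. Olfr197 read 6.99, 7.38 and 6.84 against 6.77, 6.60 and 5.43, and its difference was 0.39 without WT closed 3. Without WT closed 1 that of Olfr250 was 0.27 and that of Olfr322 was 0.31. Downward stood Olfr585 (-0.59), Olfr58 (-0.54), Olfr945 (-0.45), Olfr460 (-0.40), Olfr1124 (-0.39) and Olfr1490 (-0.39), and Olfr460 differed by -0.23 without WT closed 3. Olfr585 read 4.94, 4.95 and 5.27 in the KO and 5.65, 5.84 and 5.43 in the WT.

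**Figure D3:**
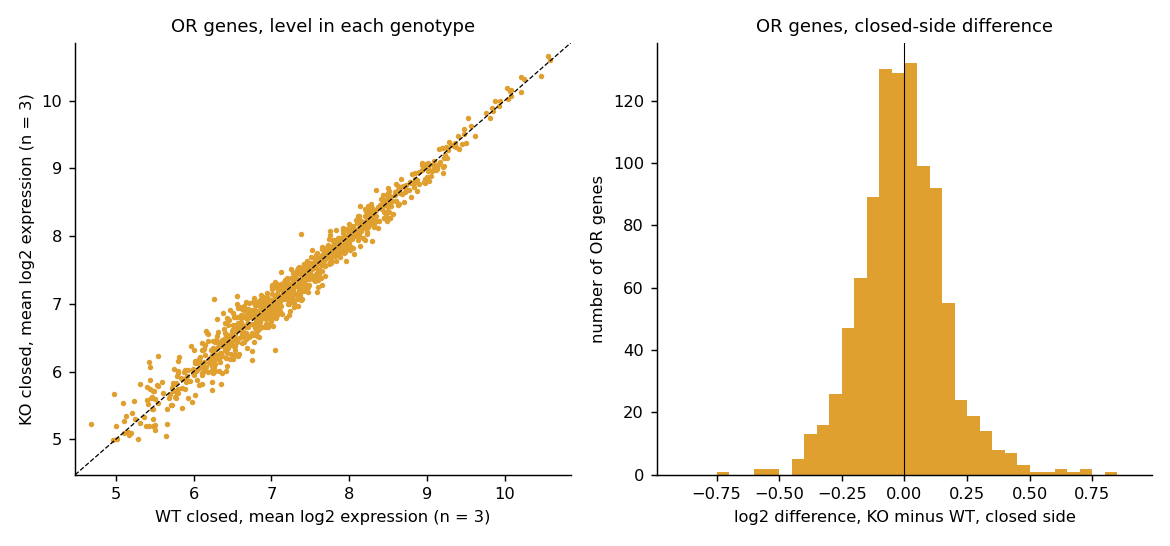
Left, mean log2 level of 984 OR genes on the closed side in the KO (vertical axis) against the WT (horizontal axis, n = 3 each), with a dashed line at equal levels; right, number of ORs by log2 difference. The points follow the line, and the differences centre at -0.01.

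ORs that the study examined one by one had small differences between the genotypes on the deprived side. Olfr1325 read 6.78, 6.76 and 7.08 in the KO and 6.82, 6.73 and 7.33 in the WT, a difference of -0.09 (95% interval -0.41 to 0.24). Olfr1414, which the text and legends of the study do not name, read 8.53, 8.51 and 8.58 in the KO. In the WT it read 8.49, 8.34 and 8.44, a difference of 0.11 (95% interval -0.08 to 0.31). Olfr1325 overlapped between the genotypes, while each KO sample of Olfr1414 lay slightly above each WT sample. Olfr827 differed by -0.05, Olfr1336 by 0.02 and Olfr1313 by 0.15, the last with an interval from -0.32 to 0.63. At an unadjusted p under 0.05 in limma, 1.86% of named genes were higher and 2.16% lower. Over a list of 20 ORs, mostly ones that the study examined singly, 0 were so. Their median difference was -0.04. Olfr733 had the smallest p of them, with 9.05, 9.12 and 8.95 in the KO and 9.24, 9.17 and 9.23 in the WT, a difference of -0.17 (unadjusted p = 0.0531); Olfr2 and Olfr167 differed by -0.25 and -0.21, or by -0.12 without KO closed 1 and -0.07 without WT closed 3.

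Markers of OSNs differed little. Of 17 mature OSN markers 0 passed in limma. At an unadjusted p under 0.05 there were 0, where 1.86% of named genes were higher and 2.16% lower. Differences of the 17 ran from -0.135 to 0.165, with every 95% interval between -0.37 and 0.343. Omp, a protein that marks OSNs once mature, read 12.68, 12.71 and 12.71 in the KO and 12.53, 12.59 and 12.65 in the WT. Each KO sample was above each WT sample, yet the difference of 0.11 (95% interval -0.06 to 0.28) did not pass. The potassium channel gene Kcnk10, the receptor chaperone gene Rtp1 and the channel subunit gene Cngb1 had the smallest p of the list. They differed by 0.17, 0.13 and 0.13. With no overlap between the genotypes, 4 of the 17 were higher in the KO and 0 lower. Over 19390 named genes 857 were higher and 874 lower in that way. The mean level over the list was 10.99 to 11.02 in the KO and 10.91 to 11.02 in the WT. In bulk RNA, fewer cells of a type and less RNA per cell cannot be told apart.

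Immature OSN markers and genes of odor transduction likewise gave no difference past the test. Of 16 immature OSN markers 0 had an unadjusted p under 0.05 in limma, where 1.86% of named genes were higher and 2.16% lower. The differences of the 16 ran from -0.113 to 0.144. Gap43, a growth cone protein of immature OSNs, read 10.62, 10.68 and 10.75 in the KO and 10.62, 10.61 and 10.73 in the WT, a difference of 0.03. Hdac9, Gng8 and Nhlh2 differed by 0.14, 0.13 and -0.11. Of 18 genes of odor transduction 0 had an unadjusted p under 0.05 either. Cnga2, the main subunit of the olfactory cyclic nucleotide-gated channel, differed by 0.02 (95% interval -0.14 to 0.19), Arrb2, a receptor-desensitising arrestin, by 0.14, and Camk2b by 0.31, which was -0.0079 without WT closed 1.

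Of 23 genes linked to axon sorting and to activity, 0 were called. In limma 3 had an unadjusted p under 0.05, all lower, where 2.16% of named genes were lower and 1.86% higher at that threshold. S100a5, a calcium-binding protein of active OSNs, read 10.75, 10.85 and 10.64 in the KO and 11.01, 10.79 and 11.32 in the WT. The groups overlapped, and the difference of -0.29 had an unadjusted p of 0.0371. Lrrc3b, a membrane protein gene, read 9.27, 9.45 and 9.45 against 9.66, 9.49 and 9.83, a difference of -0.27, and Pcdh10, a protocadherin of OSN axons, had one of -0.43. The open-side differences of S100a5 and Lrrc3b were -0.05 and -0.09, and that of Pcdh10 was -0.42; the difference between the sides did not pass for any of them.

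Kirrel2 and Kirrel3, adhesion molecules by which like axons sort, and the ephrin pair Epha5 and Efna5 did not pass. Kirrel2 read 10.49, 10.59 and 10.47 in the KO and 10.70, 10.46 and 11.01 in the WT, a difference of -0.20 (95% interval -0.51 to 0.10). Kirrel3 read 9.60, 9.50 and 9.59 in the KO and 9.59, 9.57 and 9.55 in the WT, a difference of -0.01 (95% interval -0.17 to 0.15). Both overlapped between the genotypes. WT closed 3 was the highest sample of its group for S100a5, Lrrc3b, Pcdh10, Kirrel2 and Epha5, a pattern chosen after the values were seen. Without it the difference of S100a5 was -0.15, that of Pcdh10 -0.23 and that of Kirrel2 -0.06. Epha5 differed by -0.20 and Efna5 by 0.02, and the guidance pair Nrp1 and Sema3a by -0.03 each.

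Immediate early genes, which neurons transcribe within minutes of activity, had 0 called of 21 and 2 at an unadjusted p under 0.05 in limma, both higher in the KO, against 1.86% of named genes higher and 2.16% lower. Jund, a subunit of the AP-1 factor, read 9.05, 9.07 and 9.06 in the KO and 8.78, 8.77 and 8.92 in the WT. Its difference was 0.24 (95% interval 0.06 to 0.41, unadjusted p = 0.0133). Ier2 read 8.21, 8.16 and 8.06 against 7.95, 7.96 and 7.75, a difference of 0.26 (unadjusted p = 0.0154). In both genes every KO sample lay above every WT sample, and the open-side differences were 0.28 and 0.23. Jun, another AP-1 subunit, differed by 0.16. The median over the list was 0.06, against -0.00167 over all named genes, and no other member had an unadjusted p under 0.05. Of 19 genes of the CREB family and of cAMP effectors 0 had one in limma; Creb5 differed by 0.25, Pde8b by -0.17 and Crem by 0.18.

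**Figure D4:**
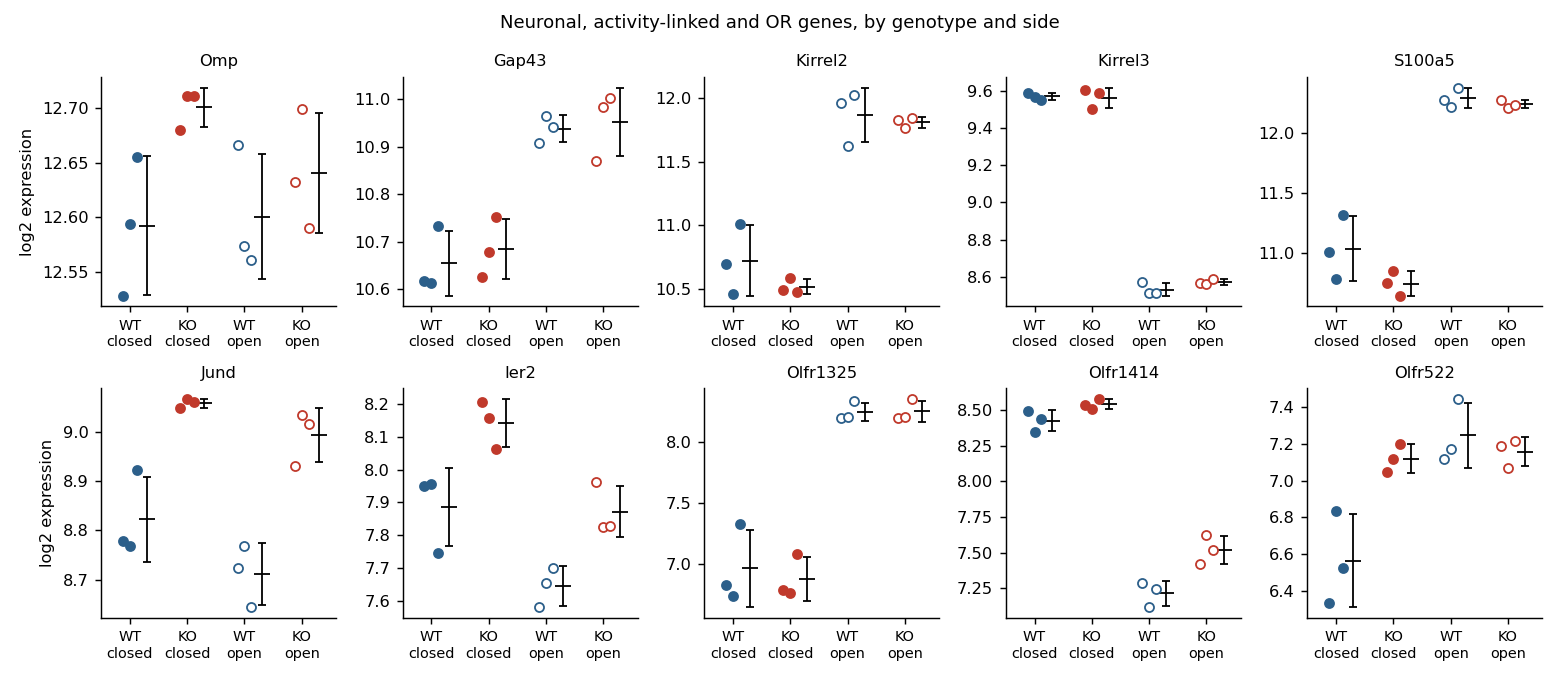
Log2 expression (vertical axes, not starting at 0) of 10 genes in each of the 12 arrays, by genotype and side (horizontal axis); filled points are closed-side arrays, open points open-side arrays, and bars the mean and SD (n = 3). Olfr1325, S100a5 and Kirrel2 are low and Kirrel3 and Olfr1414 high on the closed side of either genotype, and Jund and Ier2 are higher in each KO array than in each WT array of the closed side.

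Genes of cell death and survival bear on the life span of OSNs. Of 33 cell death genes 0 were called, and 3 were higher and 1 lower in the KO at an unadjusted p under 0.05 in limma, against 1.86% and 2.16% of named genes. Bok, a pro-death member of the Bcl2 family, read 8.69, 8.80 and 8.83 in the KO and 8.50, 8.60 and 8.46 in the WT, a difference of 0.25. Mcl1 and Bcl2, pro-survival members, differed by 0.20 and 0.24, the latter named after its value was seen, and Casp12, a caspase gene, by -0.41 (-0.23 without KO closed 2). Of 25 genes of survival factors and their receptors, Igf2, a growth factor, was the 1 with an unadjusted p under 0.05. It read 9.48, 9.14 and 9.35 in the KO and 9.63, 9.64 and 9.63 in the WT, a difference of -0.31 (unadjusted p = 0.0111), with -0.34 on the open side. Tgfa and Ntrk3 differed by 0.21 and -0.17. Of 34 cell division genes only the cyclin gene Ccna2 had an unadjusted p under 0.05 (difference -0.31), with Cenpf at -0.29 and Mcm5 at -0.24, and of 15 genes of basal stem and progenitor cells 0 had one in limma (Lgr5 0.25, Ezh2 -0.14, Trp63 -0.13).

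Genes of chromatin and of gene control gave no called difference outside the H2B family. Of 27 histone genes outside the H2B family, H2aw and H4c9 were higher at an unadjusted p under 0.05 in limma, by 0.25 and 0.35. At that threshold 1.86% of named genes were higher and 2.16% lower. With no overlap between the genotypes, 5 of the 27 were higher in the KO and 0 lower. Over 19390 named genes 857 were higher and 874 lower in that way. H2ac1 differed by 0.12, and the median over the list was 0.05. H4c9 read 8.19, 8.44 and 8.32 in the KO and 7.84, 8.14 and 7.90 in the WT, a difference also seen on the open side (0.45, unadjusted p = 0.0046). Of 23 genes of enzymes that modify H2B, the kinase gene Stk4 had an unadjusted p under 0.05 (-0.20), while Rnf20, the H2B ubiquitin ligase, differed by -0.13 and Hdac1 by 0.12. Of 51 genes of RNA processing 0 had one in limma, with differences from -0.159 to 0.164 (Hnrnpc 0.14, U2af2 0.16, Rbm25 -0.16). Of 43 developmental transcription factors Klf5 had one (0.21, with Id4 at 0.21 and Klf7 at 0.20). With no overlap between the genotypes, 7 of the 43 were higher in the KO and 0 lower. Of 20 genes of the unfolded protein response and of receptor choice 0 had an unadjusted p under 0.05 in limma. Atf4, Ldb1 and Atf5 differed by 0.15, 0.14 and 0.13.

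Other chemoreceptor systems were measured in the same RNA. Of 13 trace amine-associated receptors 0 had an unadjusted p under 0.05 in limma. Their median was -0.03, and Taar2, Taar7b and Taar7f differed by -0.32, -0.18 and -0.23. Of 15 genes of necklace neurons, which detect gases and peptides, Ms4a6c had one, where 2.16% of named genes were lower and 1.86% higher. It read 7.22, 7.02 and 7.14 in the KO and 7.65, 7.46 and 7.43 in the WT, a difference of -0.39 (unadjusted p = 0.0069, limma). The open-side difference of Ms4a6c was 0.05, and the difference between the sides did not pass. Ms4a6d and Cnga3 differed by 0.23 and -0.16. Of 6 vomeronasal genes 0 had one in limma (Vmn2r1 -0.15, Vmn1r5 0.19, Gnao1 0.09).

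Markers of the other cells of the tissue gave no called difference. Of 15 genes of sustentacular cells, the supporting cells of the epithelium, 0 had an unadjusted p under 0.05 in limma, with differences from -0.114 to 0.0771 (Gpm6a -0.11, Sult1c1 0.08, Cyp2g1 0.06). At that threshold 1.86% of named genes were higher and 2.16% lower. Of 31 gland products and 23 genes of respiratory cilia 0 had an unadjusted p under 0.05 in limma. Mup5 differed by -0.47 with an interval from -1.30 to 0.37, Obp1a by -0.13 and Lyz1 by -0.11. Dynlrb2, Cfap126 and Tekt4 differed by 0.16, -0.12 and 0.15. Of 16 genes of microvillous and tuft cells and ionocytes, Ascl3 had one (0.21; Il25 0.41, Avil -0.33), and of 12 of ensheathing glia, Frzb (-0.36, or -0.23 without KO closed 1; Cdh19 -0.20, Foxd3 -0.23). Of 36 immune genes, Cd74, which assists antigen presentation, had one. It read 7.83, 7.85 and 7.82 in the KO and 8.01, 8.29 and 8.05 in the WT (-0.28), and Camp and C1qb differed by -0.31 and -0.19. Of 28 interferon and MHC genes 0 had one in limma (Bst2 -0.28, Xaf1 -0.29, Stat2 0.15).

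Markers of tissue attached to the epithelium gave no called difference either. Of 12 skeletal muscle genes Mylpf and Atp2a1 had an unadjusted p under 0.05 in limma, both at 0.33, while Ckm differed by -0.26. At that threshold 1.86% of named genes were higher and 2.16% lower. The mean level over the muscle list was 6.92 to 6.96 in the KO and 6.88 to 7.01 in the WT. Of 29 genes of vessels, bone, cartilage and connective tissue, the cartilage matrix gene Comp had one (-0.34; Mmp9 0.19, Col5a1 -0.20), and of 7 blood genes 0 had one in limma (Slc4a1 -0.22, Alas2 -0.20, Rhag 0.13). The sex-linked transcripts Xist and Kdm5d differed by -0.13 and -0.10, and Eif2s3y by 0.48 at a dim level (unadjusted p = 0.0361, limma). Kdm5d ranged from 6.01 to 7.16 among the KO open samples and from 6.16 to 7.49 among the WT open samples.

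**Figure D5:**
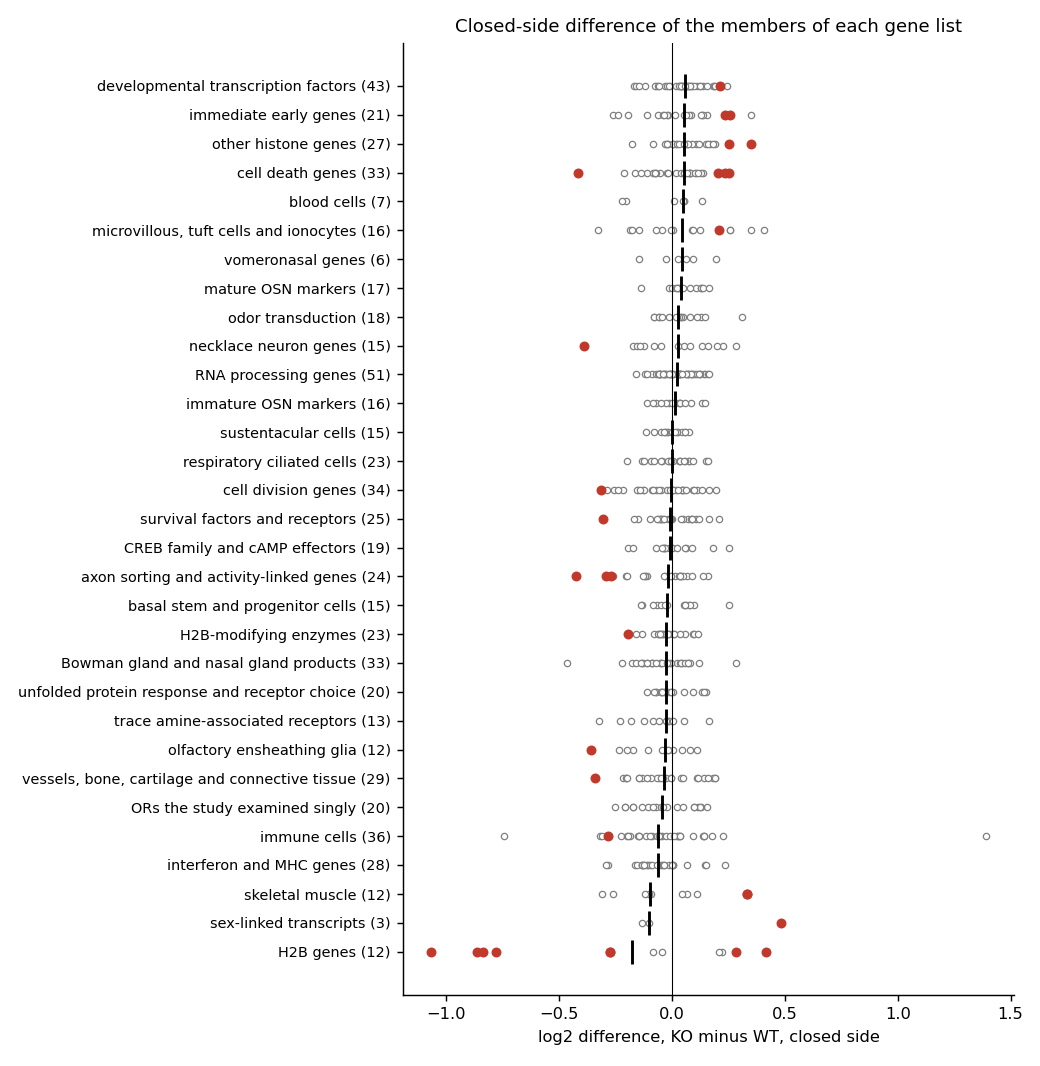
Log2 difference between KO and WT on the closed side (horizontal axis) of each tested member of 31 gene lists (rows). The number beside a row counts list entries tested, of which some name the same gene. Points are genes, red where the unadjusted p was under 0.05, and black bars are medians. The H2B genes spread from -1.07 to 0.418, while the list medians outside H2B stay within 0.1 of 0.

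Genes that lie beside H2be on its chromosome were listed in the RefSeq annotation (GRCm38.p6), 25 protein-coding genes on each side. Of these 50, 42 were tested and 0 were called in limma, with a median difference of -0.02, and 3 were higher and 1 lower at an unadjusted p under 0.05, against 1.86% and 2.16% of named genes. These were Pdzk1 (0.75), Ensa, a phosphatase inhibitor gene (0.23), Mcl1 (0.20) and Anp32e, the chaperone gene of the histone variant H2A.Z (-0.22). Ensa read 9.17, 9.17 and 9.11 in the KO and 8.96, 8.85 and 8.95 in the WT, and Anp32e 9.34, 9.51 and 9.46 against 9.58, 9.64 and 9.74. Neither overlapped between the genotypes on the closed side, and on the open side their differences were -0.09 and 0.05. The difference between the sides did not pass for either.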

How the data were processed

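The authors processed the arrays with the Affymetrix Expression Console, using sketch-quantile normalization and IterPLIER summarisation, and the deposited table holds the resulting log2 value of each of 35556 probe sets on 12 arrays, with 0 missing values. Names came from the platform annotation given with the series, older symbols were matched through RefSeq, and for each gene the probe set of 1 symbol with the highest mean was used (19390 genes). OR genes are genes of the Olfr series that are not pseudogenes.

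The 32615 probe sets whose log2 values averaged over 5 were fitted with limma 3.58.1 in R 4.3.3 (lmFit and eBayes, 1 mean per group, all 12 arrays); the study also used limma. Tests were two-sided at an adjusted p of 0.05 (Benjamini-Hochberg), with 11.5 degrees of freedom. Precision is set by how few arrays there were. The fit was run on simulated data with known changes, drawn independently for each probe set and array. Such data hold neither paired sides nor probe sets that share values. Figures used Python 3.11.15 with matplotlib 3.10.9.

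Members and the 31 gene lists were chosen with earlier results of these data known. Genes were named by a rule. It took the largest differences and smallest p among genes whose samples did not overlap at an unadjusted p under 0.05. Predicted and RNA genes were left out of these. To them came up to 3 members of each list and a fixed set, mostly of genes that the study names. Neighbours of H2be with an unadjusted p under 0.05 were named as well. Results were recomputed under 23 alternatives.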

Additional observations from a re-analysis of the deposited data

How the results depend on the processing

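Of 23 alternatives 12 left out 1 array each. The direction of the H2B differences held under each alternative in which a probe set was tested, except for H2bc1, which turned; the 5 dimmest were not tested above a mean level of 7. With only the closed-side arrays fitted, the 8 calls became 3, the probe sets with equal values, and with same-numbered KO and WT closed samples as a replicate block in those 6 arrays they became 0 (smallest adjusted p 0.567); as a block over 12 arrays they stayed at 8. Such samples share only a number: their deviations correlated at 0.18, 0.052 and 0.043. Trend and robust fitting gave 11 calls, adding H2bc3, H2bc22 and H2bu2, and 12 on the open side and 24 on the mean of both, against 7 and 9. Above a mean level of 7, the mean of both sides gave 14, and the unadjusted counts became 423 higher and 436 lower (12 and 25 ORs). With only named probe sets 427 were higher, and with identical probe sets entered once the closed-side calls were 6. Both of these alternatives were added after seeing the data.

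Without each array in turn the closed-side calls were 8 to 10, the open-side calls 6 to 8, those of the side difference 0 to 1 and those of the mean 9 to 11. The unadjusted counts were 548 to 1115 higher and 544 to 1133 lower, those of ORs 12 to 49 and 23 to 47, the OR median -0.0445 to 0.0305, and the difference of H2be -0.29 to -0.26. The 2 extra calls came without WT closed 2 (Ptchd3 and Spata4) and the 1 extra without WT open 1 or KO open 1 (a different unnamed probe set each time).

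Some differences that had not passed the test changed direction, from small ones to that of Camk2b (0.31). With array weights Nrp1 became 0.0092, Efna5 -0.012, Olfr827 0.0198 and H2bc1 0.00997, and with median centring Kirrel3 0.0017. Leaving out 1 array each gave Nrp1 -0.12 to 0.076, Efna5 -0.016 to 0.057, H2bc1 -0.24 to 0.068, Kirrel3 -0.026 to 0.025, Olfr1336 -0.041 to 0.085, Olfr827 -0.17 to 0.027, Gap43 -0.0031 to 0.0701, Camk2b -0.0079 to 0.52, Trp63 -0.22 to 0.032, Cnga2 -0.014 to 0.057, Rhag -0.067 to 0.31, Olfr1313 -0.15 to 0.39, Kdm5d -0.19 to 0.0056, Sema3a -0.12 to 0.046 and Olfr1325 -0.20 to 0.096. Of the single differences recomputed that were at least 0.2 in size, 34 shrank by over 1.5 times or turned without 1 array, none of them of a called probe set. The cause was not tested.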

Other observations

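Apart from H2bu1-ps, 9 named genes differed by more than 1 log2 unit between KO and WT on the closed side, and none passed the test. Gm5148 read 0.00, 6.32 and 5.96 in the KO and 6.78, 6.77 and 7.14 in the WT, and the value 0.00 stood in KO open 1 as well as in KO closed 1. 5430401F13Rik read 7.52, 8.96 and 11.65 in the KO and 11.72, 10.85 and 12.26 in the WT. Spata4 read 5.40, 5.80 and 5.71 against 2.81, 5.61 and 2.47. Chil4, a chitinase-like gene of inflamed mucosa, read 5.67, 8.85 and 6.17 against 5.26, 5.42 and 5.85. In Gm5148, 5430401F13Rik and Chil4 the samples of the KO lay far apart from one another, and in Spata4 those of the WT.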
